A study of Homo sapiens with 10 samples.

Results

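The 10 genes described here are NR4A1, NR4A2, NR4A3, FOS, FOSB, FOSL1, JUN, JUNB, EGR1 and IER3, a set of immediate early genes that includes the whole NR4A family of orphan nuclear receptors. They were chosen by symbol: their rows were found by matching Ensembl identifiers to these names, and all 10 were present among 63140 identifiers. The list was drawn up with earlier results of the same libraries known and names no contrast or threshold, so levels and fold changes of the 10 are given as a description, without p-values. All 10 passed the filter on low counts, as did 16382 identifiers in all.

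Poly(A) RNA came from HS-SY-II, a human synovial sarcoma cell line that carries an SS18-SSX fusion. The treated cells received 100 nM of WA-68, a molecule that brings about degradation of the bromodomain protein BRD9, over 12, 24, 48 or 96 h, and the vehicle group received DMSO. Each of the 5 groups held 2 replicates that the labels call biological, which makes 10 libraries. All groups were HS-SY-II cells, described as grown in DMEM with 10% FBS; the labels give no time of harvest for the DMSO cultures and name no serum withdrawal or acute stimulus. All results therefore concern 1 cell line, and an effect of time in culture cannot be told apart from an effect of WA-68 duration.

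Immediate early genes are transcribed within minutes of growth factors, serum or stress, from promoters that are already poised, and most of their transcripts decay quickly. Kinase signalling reaches them through serum response factor and its ETS partners, which bind CArG boxes, and through CREB family factors, which bind cyclic AMP response elements. The FOS and JUN proteins pair to form the transcription factor AP-1, EGR1 is a zinc finger transcription factor, and the NR4A proteins bind DNA as receptors with no known classical ligand. In synovial sarcoma, BRD9 belongs to the SS18-SSX containing form of the BAF chromatin remodelling complex.

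The promoters of FOS, FOSB, JUNB and EGR1 are shown. Positions of TATA and signal-responsive motifs can thus be compared between EGR1 and the most abundant FOS and JUN family genes of the set. JUND, a JUN family gene outside the set, was more abundant than these, and its promoter is not shown. Each stretch is the 130 bases before the RefSeq start on GRCh38.p14, read 5′ to 3′ on the plus strand. Capitals mark matches to TGACG, the core of a cyclic AMP response element (CGTCA on the other strand), to TATAAA, and to the CArG box.
FOS, chr14:75278698-75278827: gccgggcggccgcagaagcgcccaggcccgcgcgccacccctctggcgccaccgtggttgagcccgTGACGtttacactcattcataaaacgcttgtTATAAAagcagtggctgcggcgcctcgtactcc
FOSB, chr19:45467866-45467995: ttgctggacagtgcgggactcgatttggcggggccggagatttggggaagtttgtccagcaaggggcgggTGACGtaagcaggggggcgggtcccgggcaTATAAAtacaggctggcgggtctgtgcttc
JUNB, chr19:12791356-12791485: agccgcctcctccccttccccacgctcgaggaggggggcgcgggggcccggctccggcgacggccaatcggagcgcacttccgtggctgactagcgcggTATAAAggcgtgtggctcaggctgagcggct
EGR1, chr5:138465349-138465478: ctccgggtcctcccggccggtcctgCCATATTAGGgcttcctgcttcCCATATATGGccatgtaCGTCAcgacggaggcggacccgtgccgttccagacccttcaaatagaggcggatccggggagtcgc

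Both FOS and FOSB carry 1 TGACG and 1 TATAAA at nearly the same distances. TGACG begins 64 bases before the start in FOS and 60 bases before it in FOSB, and TATAAA begins 33 bases before the start in FOS and 30 bases before it in FOSB. JUNB has TATAAA 31 bases before its start and TGACG at 137 bases, outside the stretch shown. EGR1 has 2 CArG boxes, beginning 105 and 83 bases before the start. It also has 2 matches to TGACG on the other strand, at 135 bases, outside the stretch shown, and at 66 bases. Both strands of the 250 bases before each start were searched, and 7 of the 10 genes matched a window in the RefSeq table. A CArG box or other motif farther upstream, in FOS or any other gene, would not have been found. Over 35116 windows in that table, 21.2% held TGACG, 10.7% held TATAAA and 1.16% held a CArG box. Of the others, NR4A3 held 4 matches to TGACG, and JUN held 1 together with TGACATCA, an AP-1 and ATF type element found in 2.37% of windows. A match describes these letters only.

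The libraries held 7349744 to 13200051 assigned counts, and levels are in CPM after TMM scaling, which sets library sizes by the bulk of genes. Of 8 synovial sarcoma markers, 5 were plainly present: TLE1, BCL2, SS18, SSX1 and PRAME, with SSX1 the lowest at 41.7 to 57.2 CPM. CTAG1B had at most 1 count in a library, KRT8 at most 1.26 CPM and KRT18 at most 2.67 CPM. The leukocyte marker PTPRC, the endothelial marker PECAM1 and the muscle marker MYOD1 had 0 counts in every library, and CDH5 had at most 2. Along principal component 2 (16.4% of the variance) the replicate 2 libraries of 96 h (-26.0) and DMSO (-24.2) stood apart from the other 8 (-0.71 to 14.4). For some of the results that depend on them, values from fits without them are given below. In bulk RNA, fewer cells expressing a gene and less RNA per cell cannot be told apart.

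Among the genes of the set, levels per kilobase of longest annotated transcript were highest for FOS and JUNB. JUND, outside the set, had 109 and 111 CPM in DMSO, above FOS at 64.8 and 59.6 CPM. In the DMSO libraries the order was FOS (28.8 CPM per kb), JUNB (22.0), FOSB (11.9), IER3 (11.4), EGR1 (1.91), NR4A1 (1.62), JUN (0.83), FOSL1 (0.68), NR4A3 (0.35) and NR4A2 (0.21). The ranges of FOSB and IER3 overlapped in DMSO, as did those of JUN and FOSL1 and those of NR4A3 and NR4A2. FOS was first and JUNB second in all 5 groups, and at 96 h the JUNB libraries overlapped those of IER3. NR4A1 was sixth in each group up to 48 h and eighth at 96 h, where its libraries overlapped those of FOSL1. The plot of levels by library shows the same values on each gene's own scale.

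**Figure D1:**
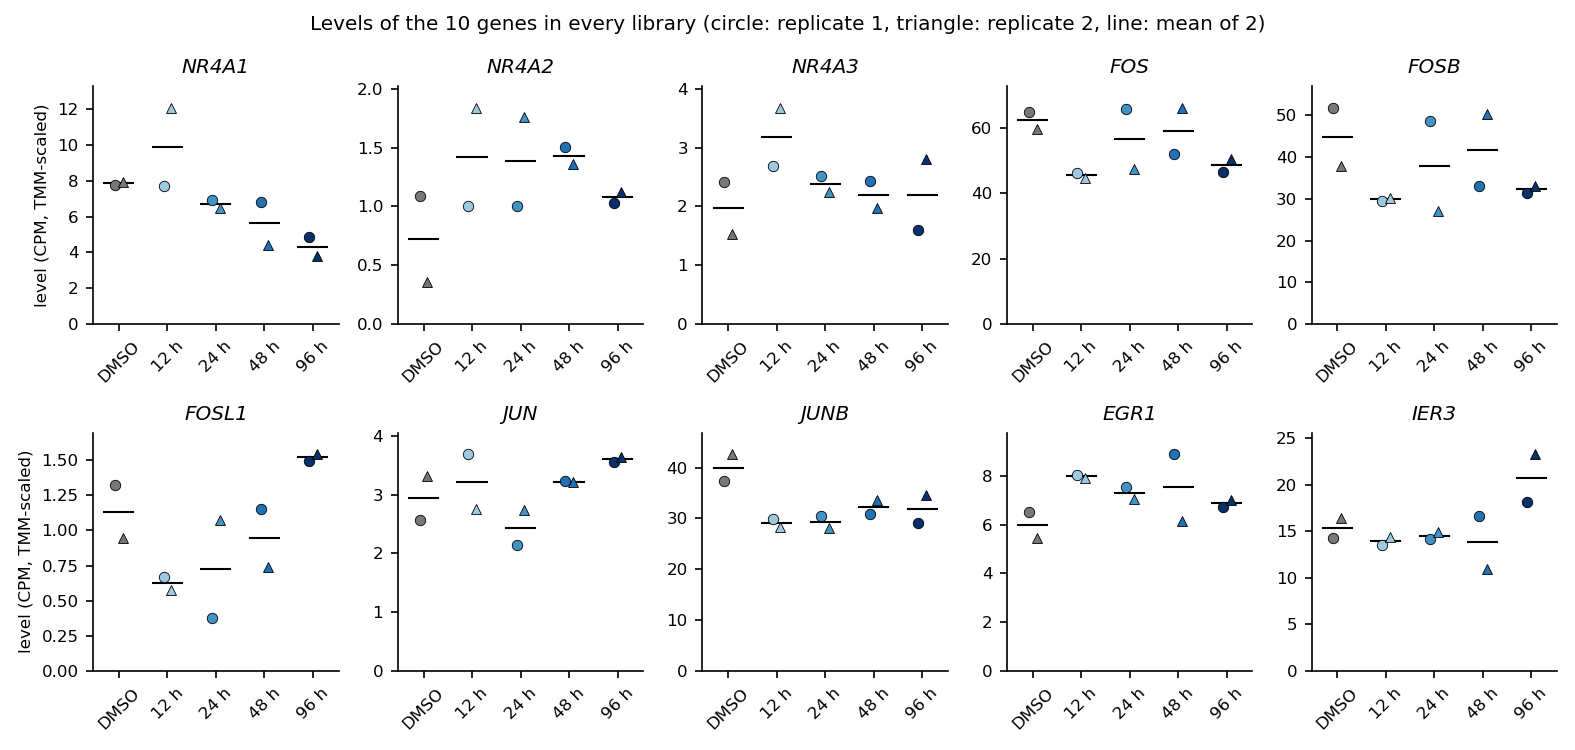
Level in CPM, TMM-scaled (vertical axis, from 0), of each of the 10 genes in DMSO and at 12, 24, 48 and 96 h of WA-68 (horizontal axis). Circles are replicate 1, triangles replicate 2 and lines the mean of the 2; JUNB lies at 28.1 to 33.7 CPM from 12 to 48 h and at 37.4 and 42.7 CPM in DMSO, and NR4A1 has its 3 lowest values at 48 and 96 h.

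Few of the 10 genes moved past the threshold applied to all genes, an edgeR quasi-likelihood test with a Benjamini-Hochberg adjusted p under 0.05 in its comparison. JUNB was lower at 12 and 24 h, none passed at 48 h, and NR4A1 was lower at 96 h. No gene of the 10 was past the threshold as higher at any time. At 12 h, 1 of the 10 genes was past it, beside 1.92% of all tested genes lower and 1.23% higher. At 24 h it was again 1 of 10, beside 2.25% lower and 1.34% higher. At 48 h it was 0 of 10, beside 5.38% lower and 4.01% higher. At 96 h it was 1 of 10, beside 6.86% lower and 6.14% higher. At 48 h neither DESeq2 nor limma-voom called any of the 10. At an unadjusted p under 0.05, edgeR held 3 of the 10 at 12 h, 1 at 24 h, 1 at 48 h and 5 at 96 h. The share of all genes under that unadjusted threshold is not given, so nothing is read from those counts. Since the list was made with these contrasts known, nothing is read from its called counts against the shares of all tested genes.

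The median log2 fold change of the 10 genes was 0.02 at 12 h, -0.19 at 24 h, -0.10 at 48 h and 0.11 at 96 h. The medians over all tested genes ran from -0.0083 to -0.00085 in these comparisons. Complete separation of the 2 WA-68 libraries from the 2 DMSO libraries was common in the whole table. At 12 h, 2 of the 10 genes lay above and 4 below both DMSO libraries, where 21.4% and 22.1% of all tested genes did. At 24 h the counts were 1 above and 2 below, where 22.2% and 23.0% of all genes did. At 48 h they were 1 above and 2 below, beside 22.9% and 25.2%. At 96 h they were 4 above and 4 below, beside 23.0% and 25.0%. All 4 comparisons share the same DMSO libraries.

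The split of higher against lower calls over all genes moved with the scaling. With TMM, 39.0% of called genes were higher at 12 h, 37.4% at 24 h, 42.7% at 48 h and 47.3% at 96 h. With library size alone these shares were 62.4%, 59.5%, 60.3% and 60.2%.

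**Figure D2:**
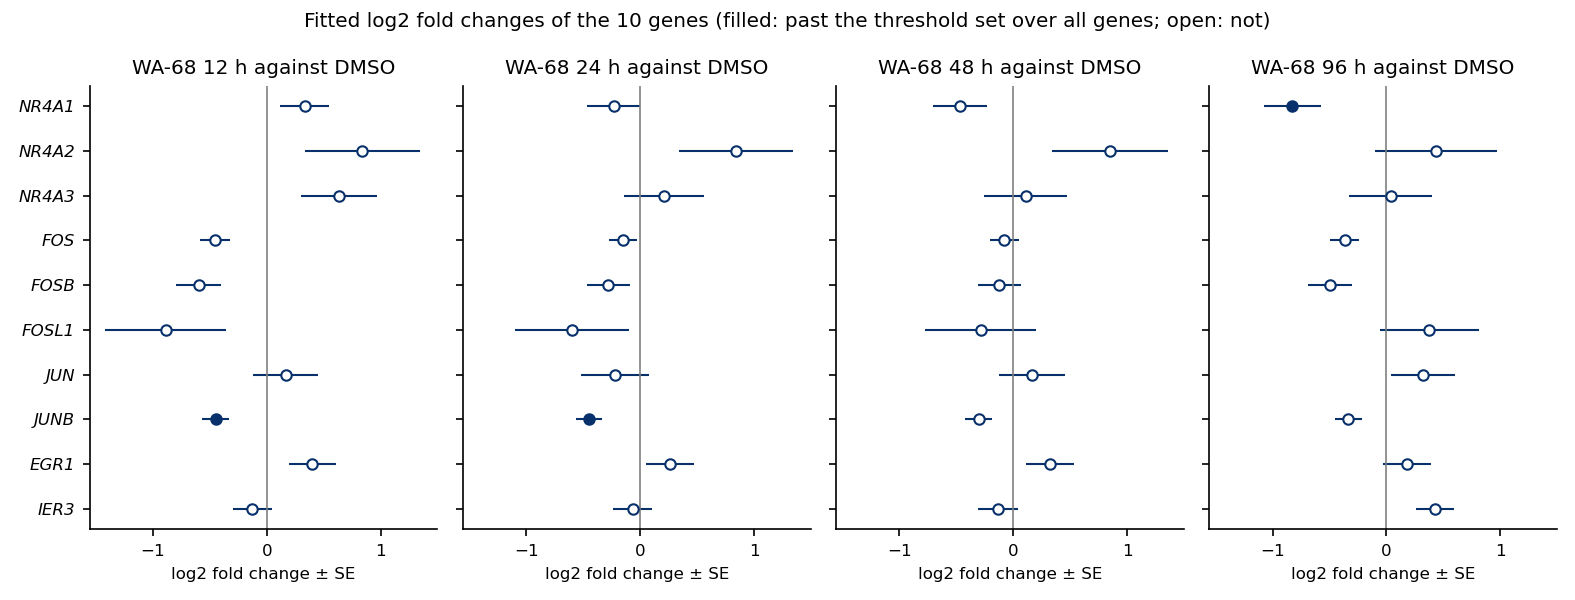
Log2 fold change (horizontal axis) with its standard error for each of the 10 genes (rows) at 12, 24, 48 and 96 h of WA-68 against DMSO. Filled points are past the threshold set over all genes: JUNB at 12 and 24 h (-0.45 each) and NR4A1 at 96 h (-0.83).

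Among the AP-1 genes, JUNB was lower in WA-68 libraries than in DMSO at every time. JUNB encodes a JUN family protein that pairs with FOS proteins and often restrains the activity of JUN. It had 30.0 and 28.4 CPM at 12 h, 30.4 and 28.1 CPM at 24 h, 30.9 and 33.7 CPM at 48 h and 29.0 and 34.7 CPM at 96 h, against 37.4 and 42.7 CPM in DMSO. All 8 WA-68 libraries lay below both DMSO libraries. The log2 fold change was -0.45 ± 0.12 (SE) at 12 h and -0.45 ± 0.12 at 24 h, past the threshold, which is 1.37-fold lower at each. It was -0.31 ± 0.12 at 48 h and -0.33 ± 0.12 at 96 h, not past it.

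The size of the JUNB difference held better than its call. Over the fits that left out 1 library in turn it ran from -0.55 to -0.36 at 12 h and from -0.55 to -0.36 at 24 h. Both calls were lost without DMSO replicate 2, without either 12 h library and without either 24 h library. DESeq2 called neither, nor did the fit scaled by library size alone, and the fit to only the 4 libraries compared lost the call at 24 h. JUNB has the highest GC content of the 10 at 64.9%, in the 96.0th percentile of tested genes. The 2 DMSO libraries differed from each other along GC content (Spearman rho of replicate 2 minus replicate 1 with GC, 0.57). That rho was -0.06 at 12 h, -0.17 at 24 h, -0.29 at 48 h and 0.29 at 96 h. With an offset fitted for GC content the log2 fold change was -0.40 at 12 h and -0.41 at 24 h, and JUNB was past the threshold at all 4 times. The offset also raised the calls over all genes, from 516 to 1265 at 12 h and from 2129 to 3340 at 96 h. HOOK2, a gene on the opposite strand that overlaps JUNB, had 16.5 to 21.2 CPM over the 10 libraries, and the strand setting of the counting is not given in the sources used here.

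FOS, which encodes the founding FOS protein of AP-1, had 46.3 and 44.6 CPM at 12 h, 65.7 and 47.4 CPM at 24 h, 52.0 and 66.1 CPM at 48 h and 46.5 and 50.5 CPM at 96 h, against 64.8 and 59.6 CPM in DMSO. Both libraries lay below both DMSO libraries at 12 h and at 96 h. At 24 and 48 h 1 library was above both DMSO values and the other below both. Its log2 fold change was -0.46 ± 0.13 at 12 h and -0.37 ± 0.13 at 96 h, neither past the threshold. It was -0.15 ± 0.13 at 24 h and -0.08 ± 0.13 at 48 h.

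FOSB, a close relative of FOS, followed the same libraries. It had 29.5 and 30.2 CPM at 12 h, 48.6 and 27.0 CPM at 24 h, 33.0 and 50.3 CPM at 48 h and 31.4 and 33.1 CPM at 96 h, against 51.8 and 37.8 CPM in DMSO. Again 12 h and 96 h were fully below DMSO, and 24 and 48 h were not. The log2 fold change was -0.60 ± 0.20 at 12 h and -0.49 ± 0.19 at 96 h, neither past the threshold. At 24 h it was -0.28 ± 0.19 and at 48 h -0.12 ± 0.19.

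The calls of FOS and FOSB depended on the fit. Of the 10 fits that each left out 1 library, FOS at 12 h passed the threshold in 6 and FOSB in 3. Without DMSO replicate 1, the higher of the DMSO libraries for both, FOSB at 12 h was -0.34. Without any filter on low counts, and with the GC offset, both genes passed as lower at 12 h and at 96 h.

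The gap between replicates of FOS and FOSB was large at 24 and 48 h, and the same library was high for both genes. At 24 h replicate 1 had 1.80 times the FOSB level and 1.39 times the FOS level of replicate 2. A gap at least as large at 24 h was found in 3 of 8587 genes with a mean of 20 CPM or more for FOSB, itself included, and in 17 for FOS. At 48 h it was replicate 2 that was high, by 1.52 times for FOSB, matched by 7 of the 8587 genes, and by 1.27 times for FOS, matched by 190. JUNB, at a similar level, differed by 1.08 times at 24 h and 1.09 times at 48 h. At 12 h the gaps were 1.02 times for FOSB and 1.04 times for FOS. In DMSO replicate 1 was the higher for both genes. Its gap was 1.37 times for FOSB, matched by 210 of the 8587 genes, and 1.09 times for FOS, matched by 5389.

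The ratio of FOSB to FOS level, in CPM without length scaling, stayed between 0.57 and 0.80 over the 10 libraries. It was 0.74 and 0.57 at 24 h and 0.64 and 0.76 at 48 h, against 0.80 and 0.63 in DMSO. In each of these groups the library with more FOS also had the higher ratio. The gene ERCC1 overlaps FOSB on the opposite strand, and had 33.2 and 37.2 CPM at 24 h and 34.9 and 33.9 CPM at 48 h; in both groups it was lower in the library where FOSB was higher. After each gene's group means were centred on the log2 scale, FOS and FOSB were the nearest of the 45 pairs among the 10 genes, with a root mean square distance of 0.05 over the 5 groups. The next were NR4A3 with EGR1, FOSB with JUNB and FOS with JUNB, at 0.13 each.

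**Figure D3:**
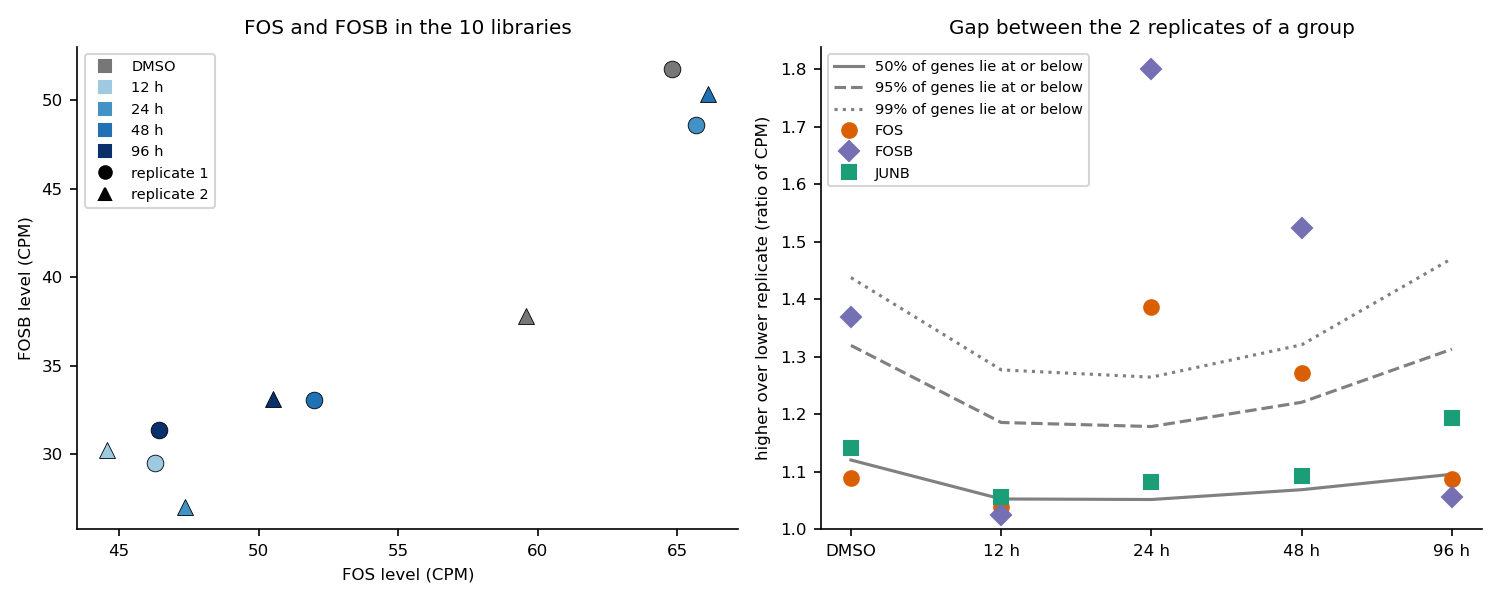
Left, FOSB against FOS level in CPM in the 10 libraries, with axes that do not start at 0 (circles replicate 1, triangles replicate 2, colour for the group). Right, the higher over the lower replicate of each group for FOS, FOSB and JUNB, with lines at the levels that 50, 95 and 99% of 8587 genes do not exceed; FOSB at 24 h (1.80) and 48 h (1.52) and FOS at 24 h (1.39) lie above the 99% line.

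FOSL1, which encodes the FOS relative FRA-1, was close to the limit of detection, with 3 to 17 counts per library. It had 0.67 and 0.57 CPM at 12 h, 0.38 and 1.08 CPM at 24 h, 1.16 and 0.74 CPM at 48 h and 1.50 and 1.54 CPM at 96 h, against 1.32 and 0.95 CPM in DMSO. Both libraries were below DMSO at 12 h and both were above it at 96 h. The log2 fold change was -0.89 ± 0.53 at 12 h and 0.38 ± 0.44 at 96 h, neither past the threshold. At 12 h the counts were 6 and 5, and the exact 95% Poisson intervals, which cover counting error only, were 0.25 to 1.46 CPM and 0.19 to 1.34 CPM. They took in both DMSO levels.

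JUN, the partner of the FOS proteins and the gene for c-Jun, was low here for an AP-1 gene. It had 3.69 and 2.76 CPM at 12 h, 2.13 and 2.74 CPM at 24 h, 3.24 and 3.21 CPM at 48 h and 3.56 and 3.65 CPM at 96 h, against 2.56 and 3.31 CPM in DMSO. WA-68 and DMSO libraries overlapped up to 48 h, and both 96 h libraries were above both of DMSO. At 96 h the log2 fold change was 0.32 ± 0.28, not past the threshold. JUN stood between 17 and 38 counts per library.

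NR4A1, also called Nur77, was the member with the largest fitted fall among the genes past the threshold. It had 7.72 and 12.1 CPM at 12 h, 6.91 and 6.46 CPM at 24 h, 6.82 and 4.44 CPM at 48 h and 4.87 and 3.79 CPM at 96 h, against 7.77 and 7.92 CPM in DMSO. From 24 h on, all 6 libraries were below both DMSO libraries, while the 12 h libraries lay on either side. The log2 fold change was 0.33 ± 0.22 at 12 h, -0.23 ± 0.23 at 24 h, -0.47 ± 0.24 at 48 h and -0.83 ± 0.25 at 96 h, and only the last passed the threshold, as 1.77-fold lower. Set against 12 h, where 1.74% of all genes were called lower and 2.39% higher, NR4A1 at 96 h was 2.23-fold lower (log2 fold change -1.16 ± 0.25) and was the only one of the 10 past the threshold.

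The NR4A1 values leaned on single libraries. The call at 96 h against DMSO was lost without DMSO replicate 1, DMSO replicate 2 or 96 h replicate 2, and by DESeq2, with the log2 fold change between -1.04 and -0.69 over the fits that left out 1 library. Without the second libraries of both groups it was -0.67 and not past the threshold. The call against 12 h was lost only without 12 h replicate 2, the highest NR4A1 library of all, when the value was -0.80. NR4A1 held 27 to 105 counts per library. AC025259.3, a noncoding gene on the opposite strand within its bounds, had 0 or 1 count.

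The other NR4A receptors were low. NR4A3, also called NOR1, had 2.68 and 3.68 CPM at 12 h, 2.51 and 2.25 CPM at 24 h, 2.43 and 1.97 CPM at 48 h and 1.59 and 2.81 CPM at 96 h, against 2.41 and 1.54 CPM in DMSO. The libraries were fully above DMSO at 12 h, where the log2 fold change was 0.63 ± 0.33, and overlapped it at the later times; none passed the threshold. NR4A2, also called Nurr1, had 3 to 18 counts per library. It stood at 1.01 and 1.84 CPM at 12 h, 1.00 and 1.76 CPM at 24 h, 1.50 and 1.36 CPM at 48 h and 1.03 and 1.12 CPM at 96 h, against 1.09 and 0.35 CPM in DMSO.

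The fitted NR4A2 values moved widely with single libraries. Log2 fold changes were 0.84 ± 0.50 at 12 h, 0.84 ± 0.50 at 24 h, 0.85 ± 0.51 at 48 h and 0.43 ± 0.54 at 96 h, none past the threshold. The value at 12 h was 0.35 without 12 h replicate 2, 0.38 without DMSO replicate 2, which held 3 counts, and 1.95 without DMSO replicate 1.

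EGR1 had a positive fitted difference from DMSO at each time, and none passed the threshold. It had 8.05 and 7.93 CPM at 12 h, 7.54 and 7.05 CPM at 24 h, 8.90 and 6.17 CPM at 48 h and 6.74 and 7.02 CPM at 96 h, against 6.53 and 5.44 CPM in DMSO. At 12, 24 and 96 h both libraries were above both DMSO libraries, and at 48 h they overlapped. Log2 fold changes were 0.40 ± 0.21, 0.26 ± 0.21, 0.32 ± 0.21 and 0.18 ± 0.21 at 12, 24, 48 and 96 h.

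IER3, which encodes a small regulator of survival and ERK signalling, differed mainly at 96 h. It had 13.5 and 14.4 CPM at 12 h, 14.2 and 14.9 CPM at 24 h, 16.6 and 11.0 CPM at 48 h and 18.2 and 23.3 CPM at 96 h, against 14.3 and 16.4 CPM in DMSO. Only the 96 h libraries stood apart from DMSO, both higher, with a log2 fold change of 0.42 ± 0.16 that did not pass the threshold. Over the fits that left out 1 library in turn it ran from 0.25 to 0.62. At 96 h against 12 h the log2 fold change was 0.55 ± 0.17, also not past the threshold, although it passed with the GC offset and without the filter. Over the fits that left out 1 library that value ran from 0.38 to 0.75. IER3-AS1, on the opposite strand, had 5 to 13 counts.

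The fits in which JUNB and NR4A1 were recomputed are compared in the plot of alternatives. In each of them the direction of both genes in these comparisons was the same.

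**Figure D4:**
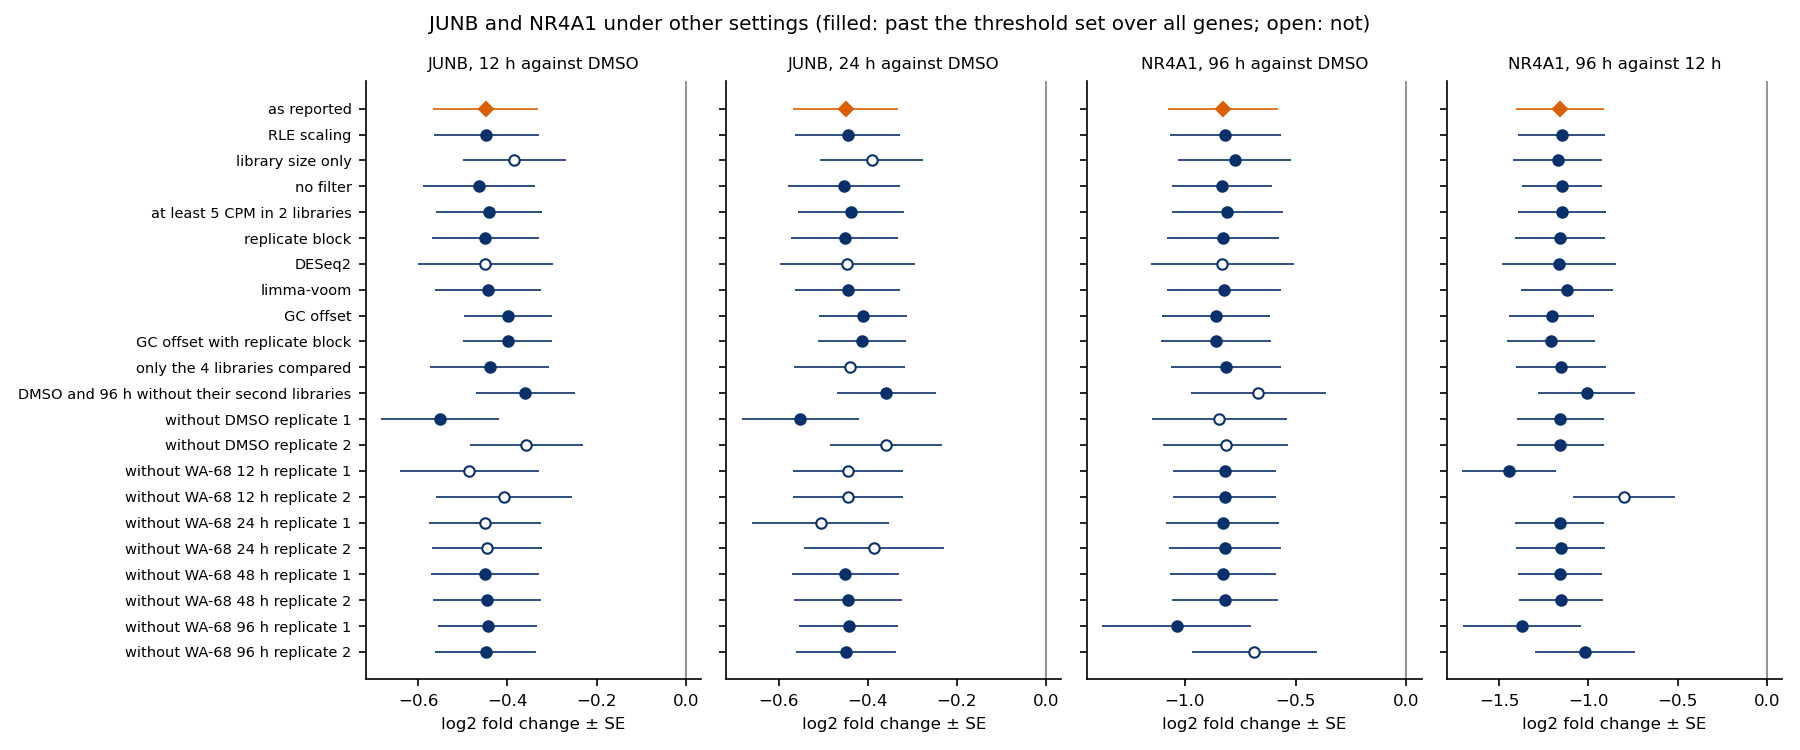
Log2 fold change with its standard error (horizontal axis) of JUNB at 12 and 24 h and NR4A1 at 96 h against DMSO, and of NR4A1 at 96 h against 12 h, as reported (orange diamond) and under 21 other settings (rows). Filled points are past the threshold; all points lie below 0, while those without single libraries are often open.

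For each of the 10, the genes whose group profile was nearest were sought among 11817 genes with a mean of at least 5 CPM, by root mean square distance of centred log2 group means over the 5 groups. The nearest to NR4A1 were the histone genes H4C2 (0.08) and H4C1 (0.10). Near JUNB was RRS1 (0.02), and the nearest to EGR1 were MTM1 and THRB (0.02 each). For FOS they were TBXA2R (0.03) and CKMT2-AS1 (0.05), and for FOSB TEDC2-AS1 (0.03) and KANSL1L-AS1 (0.04). For IER3 the nearest was RTL8A (0.05). The profiles of NR4A2, NR4A3, FOSL1 and JUN rest on low counts and their neighbours are not named. Those of NR4A1 and EGR1 also rest on modest counts, 27 to 105 and 46 to 84 per library. The NR4A1 mean at 12 h joins libraries of 7.72 and 12.1 CPM. With 11817 genes and only 5 group means, a close neighbour can arise from the search alone, so nearness is a description only.

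A textbook list of 55 other immediate early genes was set beside the 10, and 43 of them were tested. At 12 and 24 h 0 were higher and 5 fell each time, while 48 h had 2 higher with 7 lower and 96 h had 5 higher with 6 lower. These calls are by the edgeR quasi-likelihood test with Benjamini-Hochberg adjustment over all genes. Of all tested genes, 1.23% were called higher and 1.92% lower at 12 h, and 1.34% and 2.25% at 24 h. The shares were 4.01% and 5.38% at 48 h, and 6.14% and 6.86% at 96 h. At an unadjusted p under 0.05, edgeR held 17 of the 43 at 12 h, 12 at 24 h, 10 at 48 h and 14 at 96 h in either direction. The share of all genes under that unadjusted threshold is not given, so nothing further is read from those counts. With adjustment, DESeq2 called 4, 5, 8 and 10 at the 4 times, and limma-voom 5, 5, 9 and 11. The median log2 fold change of the 43 was -0.08, -0.11, -0.06 and -0.03 at 12, 24, 48 and 96 h. Among those not tested were EGR2, EGR3, EGR4, NPAS4 and PTGS2.

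MYC and IER5L had the smallest adjusted p of the list. MYC, the growth-promoting transcription factor, stood at 126 ± 22.9 CPM at 96 h and 305 ± 34.9 CPM in DMSO (SD, n = 2 each), a log2 fold change of -1.28 ± 0.12 (SE) with an edgeR adjusted p of 1.34e-07. IER5L, a relative of the immediate early gene IER5, had 27.1 and 30.2 CPM at 12 h and 32.6 and 25.8 CPM at 96 h, against 58.4 and 59.2 CPM in DMSO. Its log2 fold change was -1.04 ± 0.11 at 12 h (edgeR adjusted p = 8.46e-06) and -0.99 ± 0.11 at 96 h (edgeR adjusted p = 2.24e-06). Both genes kept their calls at all 4 times without each library in turn.

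TRIB1 and DUSP2 also fell at all 4 times. TRIB1, which encodes a pseudokinase that guides protein degradation, had 9.83 and 7.30 CPM at 96 h, against 19.4 and 19.0 CPM in DMSO, with an edgeR adjusted p of 5.97e-05 at 96 h. DUSP2, a phosphatase of MAP kinases, had 2.53 and 2.81 CPM at 96 h, against 7.07 and 6.97 CPM in DMSO, with an edgeR adjusted p of 0.000288. The DUSP2 call at 12 h (log2 fold change -0.91, edgeR adjusted p = 0.0257) was lost without either DMSO library or either 12 h library. TRIB1 lost its call at 12, 24 or 48 h without 1 library of that time, replicate 2 at 12 and 48 h and either one at 24 h. DUSP2 at 24 h lost it without 24 h replicate 2.

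PHLDA1 and PLK2 were higher late. PHLDA1, a pleckstrin homology protein induced by growth factors, had 139 and 129 CPM at 96 h, against 90.8 and 73.6 CPM in DMSO (log2 fold change 0.70 ± 0.10, edgeR adjusted p = 3.11e-05). PLK2, a polo-like kinase, had 76.3 and 78.6 CPM at 96 h, against 50.9 and 48.2 CPM in DMSO (log2 fold change 0.64 ± 0.09, edgeR adjusted p = 4.98e-05). Both had also risen at 48 h, where the PLK2 call was lost without 48 h replicate 1.

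Of 39 upstream factors, kinases, dimer partners and corepressors of the 10 genes, 35 were tested, and 5 passed the threshold in at least 1 of the 4 comparisons against DMSO. The edgeR test called 1 as higher at 12 h, 0 at 24 and 48 h, and 3 as higher with 2 as lower at 96 h. Of all tested genes, 1.23% were called higher and 1.92% lower at 12 h, and 6.14% and 6.86% at 96 h. The shares were 1.34% and 2.25% at 24 h, and 4.01% and 5.38% at 48 h. Nothing about the list as a whole is read from its counts. At an unadjusted p under 0.05, edgeR held 4 of the 35 at 12 h, 2 at 24 h, 0 at 48 h and 7 at 96 h. The share of all genes under that unadjusted threshold is not given, so nothing is read from these counts. With adjustment, DESeq2 called 0, 0, 0 and 2 at the 4 times, and limma-voom 1, 0, 0 and 5. The median log2 fold change of the list was 0.01 at 12 h, -0.02 at 24 h, 0.00 at 48 h and 0.07 at 96 h.

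FOSL2, which encodes the FOS relative FRA-2, was higher in every WA-68 library than in both DMSO libraries. It had 29.0 and 27.2 CPM at 12 h and 25.7 and 31.6 CPM at 96 h, against 19.3 and 21.2 CPM in DMSO. At 24 h it had 23.4 and 23.9 CPM and at 48 h 23.9 and 22.0 CPM, not past the threshold at either time. The log2 fold change was 0.48 ± 0.13 at 12 h (edgeR adjusted p = 0.0362) and 0.49 ± 0.13 at 96 h (edgeR adjusted p = 0.0107). The 12 h call was lost by DESeq2 and without DMSO replicate 1 or any 12 or 24 h library, and the 96 h call without DMSO replicate 1 or 96 h replicate 2.

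The rest passed at 96 h only. RPS6KA5, which encodes the kinase MSK1 that phosphorylates CREB and histone H3 at immediate early genes, had 12.3 and 12.6 CPM at 96 h, against 17.9 and 16.5 CPM in DMSO (log2 fold change -0.48 ± 0.14, edgeR adjusted p = 0.0259). ELK3, an ETS partner of serum response factor, fell by 0.38 ± 0.11 on the log2 scale (edgeR adjusted p = 0.0267). MAFK, a small MAF protein, rose by 0.55 ± 0.17 (edgeR adjusted p = 0.0358). CREBBP, the acetyltransferase that binds phosphorylated CREB, rose by 0.31 ± 0.10 (edgeR adjusted p = 0.0374). Each of these calls was lost when certain single libraries were left out: RPS6KA5 and ELK3 without DMSO replicate 1 or either 96 h library, MAFK without DMSO replicate 1, 24 h replicate 1, 48 h replicate 1 or 96 h replicate 1, and CREBBP in 6 of the 10 fits. DESeq2 did not call RPS6KA5, ELK3 or MAFK. MAFK ran from 0.31 to 0.73 and CREBBP from 0.16 to 0.46 over those fits, MAFK lowest without 96 h replicate 1 and CREBBP lowest without 96 h replicate 2.

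**Figure D5:**
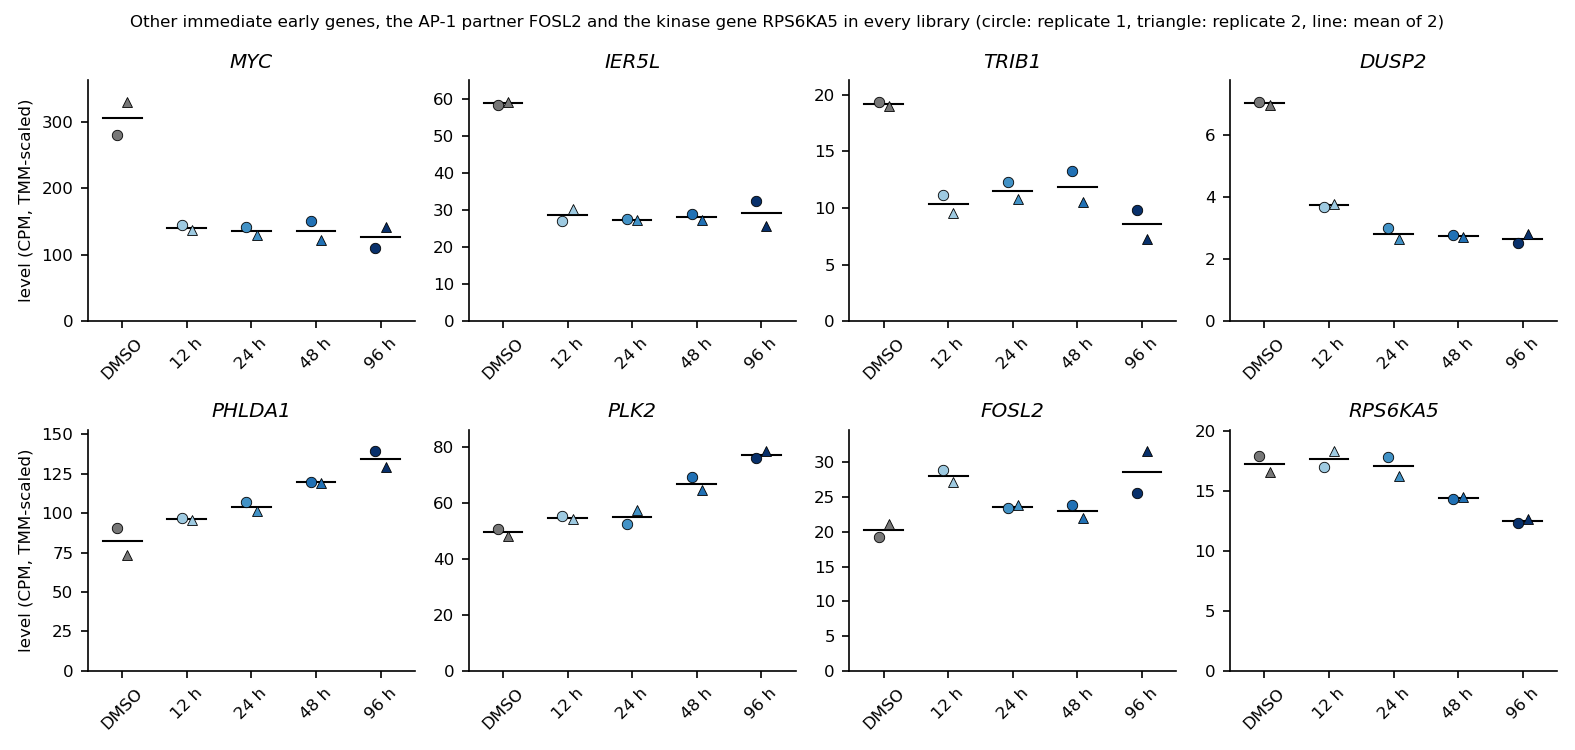
Level in CPM, TMM-scaled (vertical axis, from 0), of 6 other immediate early genes, FOSL2 and RPS6KA5 in DMSO and at 12, 24, 48 and 96 h of WA-68 (horizontal axis). Circles are replicate 1, triangles replicate 2 and lines the mean; IER5L lies at 25.8 to 32.6 CPM in all 8 WA-68 libraries and at 58.4 and 59.2 CPM in DMSO, and PHLDA1 and PLK2 are highest at 96 h.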

How the data were processed

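The deposited table holds raw read counts per gene, as whole numbers with no normalization by the authors. Per the submitters' processing notes, bcl2fastq, FastQC, Trim Galore, cutadapt, STAR, featureCounts and GRCh38 were used; their versions, annotation release and strand setting were not given in the sources used here.

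edgeR 4.0.16 (R 4.3.3) kept 16382 genes by filterByExpr, scaled by TMM, and fitted 1 mean per group over all 10 libraries with a quasi-likelihood F test, calling genes at a Benjamini-Hochberg adjusted p under 0.05. The standard error is the log2 fold change over the square root of F. The spread is that between labelled biological replicates of 1 cell line. The code of the fit was run on simulated counts with known changes. Those counts had the same spread in every gene and library and no GC trend. They do not test how the fit handles the replicate 2 libraries of DMSO and 96 h. Alternatives used other scalings and filters, a replicate block, a GC offset, DESeq2 1.42.0, limma-voom (limma 3.58.1), subsets of libraries and each library left out. GC content and lengths come from GENCODE transcripts.

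The 10 genes and the lists were chosen with earlier results of these data known. The companion lists are textbook lists, and that of other immediate early genes was written without using the values of its genes. Named are all 10 genes, up to 6 genes per companion list with the smallest adjusted p against DMSO, and the 2 nearest profiles, not all of which are reported here.

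Deviations of same-numbered replicates correlated between -0.12 and 0.19 over pairs of groups, so the numbers were not taken to pair libraries.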

Additional observations from a re-analysis of the deposited data

Results flagged for a closer look

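FOSL1 had opposite directions at 2 times, with both libraries above both DMSO libraries at 96 h (log2 fold change 0.38) and both below them at 12 h (-0.89). The difference was 1.27 ± 0.52 (SE) at 96 h against 12 h and did not pass the threshold over all genes; the gene holds 3 to 17 counts per library.

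PHLDA1, PLK2 and RPS6KA5 differed between 96 h and 12 h by edgeR's test over all genes. PHLDA1 was higher at 96 h by 0.48 on the log2 scale (adjusted p = 0.00451) and PLK2 by 0.50 (adjusted p = 0.00243); each call was lost without either 12 h library. RPS6KA5 was lower at 96 h, with a log2 fold change of -0.50 (adjusted p = 0.0468), a call lost in 8 of the 10 fits that left out 1 library.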

How the results depend on the processing

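No result changed sign among the calls reported. Of the 10 genes, JUNB at 12 and 24 h and NR4A1 at 96 h kept their direction under all 21 alternatives and passed the threshold in 14, 13 and 16 of them; NR4A1 at 96 h against 12 h passed in 20. Groups of 2 libraries and members with under 20 counts limit what could be seen.

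Counts below are for 12, 24, 48 and 96 h against DMSO and for 96 h against 12 h; as reported, the calls among the 10 genes were 1, 1, 0, 1 and 1. Library size alone gave 0 at 12 h and 0 at 24 h. No filter gave 3 at 12 h, 3 at 96 h and 2 at 96 h against 12 h. DESeq2 gave 0 at 12, 24 and 96 h. The GC offset gave 3 at 12 h, 1 at 48 h, 4 at 96 h and 2 at 96 h against 12 h, and with the replicate block 2, 1, 4 and 2. Only the 4 libraries compared gave 3 at 12 h, 0 at 24 h and 2 at 96 h, and DMSO and 96 h without their second libraries gave 3 at 12 h and 2 at 96 h. Leaving out 1 library gave 0 to 2, 0 to 1, 0 to 1, 1 to 3 and 0 to 2. Calls over all genes moved with these settings too, so nothing is read from the counts of the 10 genes or of the lists below. Over all genes, 516 were called at 12 h and 2129 at 96 h as reported. The GC offset gave 1265 and 3340, no filter 713 and 2205, and DESeq2 365 and 1559.

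Other immediate early genes called (5, 5, 9, 11 and 6 as reported) came to 9 at 12 h and 8 at 24 h with the GC offset, and to 8 and 8 with the replicate block added. Leaving out 1 library gave 2 to 6, 2 to 8, 5 to 9, 9 to 11 and 0 to 8. Upstream factors and partners called (5) came to 2 with DESeq2, 8 with the GC offset, 8 with the replicate block added, 1 with only the 4 libraries compared and 8 without the second libraries; leaving out 1 library gave 2 to 9.

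All genes called (516, 589, 1539, 2129 and 676) came to 1265, 1417, 2617, 3340 and 1492 with the GC offset, and to 1217, 1353, 2546, 3272 and 1444 with the replicate block added. Only the 4 libraries compared gave 288 at 24 h, 953 at 48 h and 1266 at 96 h. DMSO and 96 h without their second libraries gave 1139 at 12 h, 1123 at 24 h and 1056 at 96 h against 12 h. Leaving out 1 library gave 102 to 768, 112 to 935, 420 to 1918, 1610 to 2463 and 151 to 1117. The cause of these changes was not tested. Fits that leave libraries out also rest on fewer libraries.

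The replicate block alone gave 468, 527, 1412, 2031 and 596 calls and changed no call of the 10 genes; since the numbers do not pair the libraries, it is given as an alternative only.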
